A study of Drosophila melanogaster with 3 samples.

Results

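The genes described here encode the initiation, elongation and release factors of cytosolic translation. They were taken as every protein-coding gene of the Ensembl annotation of the dm6 build whose symbol begins with eIF, eEF or eRF, which gave 54 of the 13968 protein-coding genes on the chromosome arms: 44 eIF, 8 eEF and 2 eRF genes. The question asked of each was where the eGFP-tagged protein CG16779 was located on its DNA, by chromatin immunoprecipitation and sequencing (ChIP-seq) with an antibody against GFP. The material was whole Drosophila melanogaster prepupae, males and females mixed and of unknown age, from 1 MiMIC line whose CG16779 locus carries an intronic eGFP exon, which leaves the fusion under the gene's own control. The labels give 1 group of 3 biological replicates and no second genotype, treatment or stage, and since whole animals were used, the tissues behind a peak cannot be told apart.

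Each replicate was deposited as a list of 30000 regions, and so was the pool of the replicates. The 4805 peaks on the arms that the authors retained by irreproducible discovery rate (IDR), a measure of how well ranks repeat between replicates, are called IDR peaks below. Regions are described by the position of their summit and by their rank, in which 1 is the strongest region of a list by the authors' score. The replicate rank given for an IDR peak is that of the strongest region overlapping it. A gene is called bound in a list when a summit lay within 500 bp of any of its annotated start sites. Because a list of fixed length also holds weak regions, each replicate was also read by its 4805 strongest regions, to equal the IDR set in number. Sequencing depth is unknown from these lists, so a missing summit means only that no region was listed there. Below, a gene is said to be listed where such a promoter summit was found. The share of all protein-coding genes listed in at least 1 replicate was not computed. Single whole lists held 37.6%, 41.0% and 28.5% of them in replicates 1, 2 and 3.

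Translation begins when initiation factors bring the small ribosomal subunit, with its initiator tRNA, to the capped end of an mRNA and lead it to the start codon. Elongation factors then deliver each aminoacyl-tRNA and move the ribosome along, and release factors free the protein at a stop codon. These factors are needed by every growing cell, several have testis or germline versions encoded by separate genes, and many promoters of translation genes in flies start transcription within a pyrimidine-rich TCT element in place of the usual initiator.

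Sequences at the summits of 5 bound genes are shown first, because they cover the strongest peak (eIF4EHP), the summit with a DNA replication-related element in its centre (eEF1gamma), a summit shared with a ribosomal protein gene (eIF1), an internal start (eIF4A) and the most GC-rich summit (eIF4H1). Each is centred on the IDR summit and reads 5′ to 3′ on the strand of the gene, from the RefSeq copy of the dm6 assembly. Capitals mark a match on either strand to any of 8 motifs searched, which were GAGAG and GAGAGAG (GA repeats), TATCGATA (the DNA replication-related element), GGTCACACT (Motif 1), CAGCTG and CACGTG (E-boxes), TATAAA (the TATA box) and TCAGT (part of the initiator). The windows are chr3R:24109173-24109253 on the minus strand for eIF4EHP, and on the plus strand chr3R:29220104-29220164 for eEF1gamma, chr3L:3222966-3223046 for eIF1, chr2L:5982212-5982292 for eIF4A and chrX:16448924-16449004 for eIF4H1.
eIF4EHP: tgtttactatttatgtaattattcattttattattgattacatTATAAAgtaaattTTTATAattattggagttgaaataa
eEF1gamma: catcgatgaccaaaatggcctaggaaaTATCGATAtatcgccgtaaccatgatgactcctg
eIF1: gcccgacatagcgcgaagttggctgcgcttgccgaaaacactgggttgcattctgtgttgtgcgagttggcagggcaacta
eIF4A: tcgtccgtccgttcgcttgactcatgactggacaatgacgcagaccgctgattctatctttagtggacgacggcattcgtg
eIF4H1: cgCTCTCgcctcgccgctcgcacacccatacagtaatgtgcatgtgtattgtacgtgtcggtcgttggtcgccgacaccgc
The eIF4EHP summit lies in a stretch of A and T with TATAAA on both strands, eEF1gamma has TATCGATA, and eIF4H1 has a single GAGAG on the reverse strand. The printed bases of eIF1 and eIF4A hold none of the 8 motifs.

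Among the 54 translation factor genes, 13 were bound in the IDR set, or 24.1% (exact 95% binomial interval 13.5 to 37.6%), against 13.0% of all protein-coding genes (1820 of 13968). The bound genes were eIF1 and eIF5B, eIF3h, eIF4A, eIF4E1, eIF4EHP, eIF4G2 and eIF4H1, eIF6, and the elongation factor genes eEF1alpha1, eEF1gamma, eEF2 and eEF5. The interval covers counting error over genes only. Counts of IDR summits by role, given below, stand beside the same 13.0%, and differences between roles were not tested. In the pooled list 17 of the 54 genes had a summit (31.5%), close to the 32.0% of all protein-coding genes. In regions among the strongest of 2 replicates the count was 8 without replicate 1 (14.8%, against 7.53% of all protein-coding genes), 6 without replicate 2 (11.1%, against 7.46%) and 12 without replicate 3 (22.2%, against 11.3%). Pooled summits that were not IDR peaks added eIF2beta, eIF2Bdelta, eIF4H2 and eRF3, at ranks of 13048, 10987, 13069 and 8112.

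Among the 4805 strongest regions of each replicate, 13 factor genes (24.1%) were bound in replicate 1, 14 (25.9%) in replicate 2 and 8 (14.8%) in replicate 3. The background over all protein-coding genes was 14.5% in replicate 1, 15.8% in replicate 2 and 11.4% in replicate 3. The factors were above other protein-coding genes by 9.64, 10.2 and 3.44 percentage points in replicates 1, 2 and 3, with a mean difference of 7.76 ± 3.75 (SD, n = 3). All 3 replicates gave the same direction, and the exact two-sided sign-flip permutation test gave p = 0.25, the smallest value that 3 replicates allow. With the 2000 strongest regions of each replicate the mean difference was 1.29 points. With the whole lists the direction was not shared: 29, 29 and 12 factor genes had a summit in replicates 1, 2 and 3 (53.7%, 53.7% and 22.2%), against 37.6%, 41.0% and 28.5% of all protein-coding genes. Replicate 3 therefore lay below the background by this reading, and the mean difference from other protein-coding genes of 7.58 ± 12.1 points (exact permutation p = 0.5, two-sided, n = 3) was smaller than its spread.

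**Figure D1:**
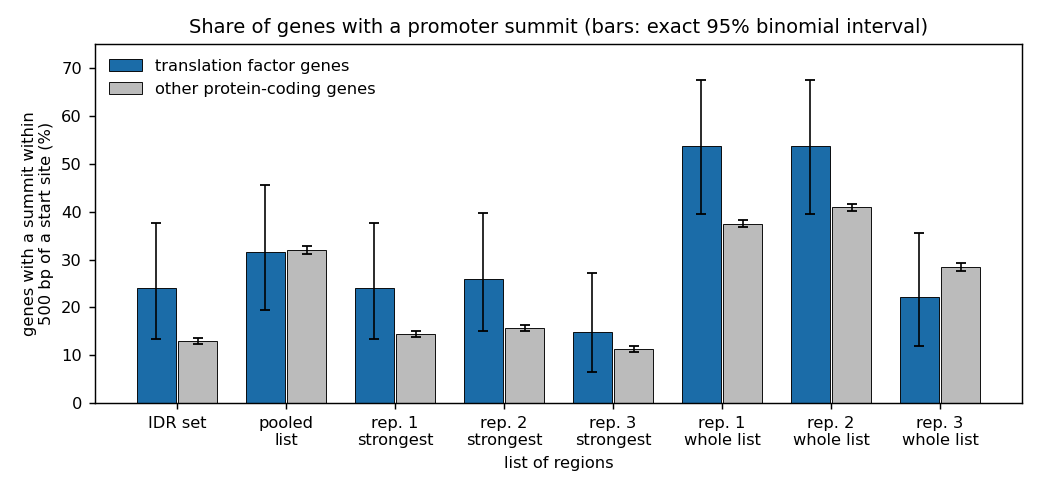
Share of genes with a summit within 500 bp of a start site (%, vertical axis) in 8 readings of the lists (horizontal axis), for the 54 translation factor genes (blue) and the other protein-coding genes (grey), with exact 95% binomial intervals as bars. The blue column is taller in the IDR set and in the strongest regions of all 3 replicates, close to the grey one in the pooled list (31.5 and 32.0%), and lower in the whole list of replicate 3 (22.2 and 28.5%).

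Genes with more start sites offer more windows, and this moved with the count. The bound factors had a median of 2 start sites and 4146 bp of length, the 41 unbound ones 1 start site and 1944 bp, and all protein-coding genes 1 start site and 2164.5 bp. Of the factor genes with 1 start site 3 of 32 were bound (9.38%), beside 7.64% of all protein-coding genes with 1. With 2 start sites the counts were 7 of 18 factor genes (38.9%) and 21.1% of all protein-coding genes. Weighted to the start-site numbers of the factor genes, the rate over all protein-coding genes came to 14.9%, or 8.06 genes, where 13 were counted. A summit also counts for each gene that has a start in reach: when only the gene with the nearest start was counted, 10 factor genes stayed (18.5%, interval 9.25 to 31.4%), against 11.1% of all protein-coding genes, and eIF1, eIF4EHP and eIF6 left.

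**Figure D2:**
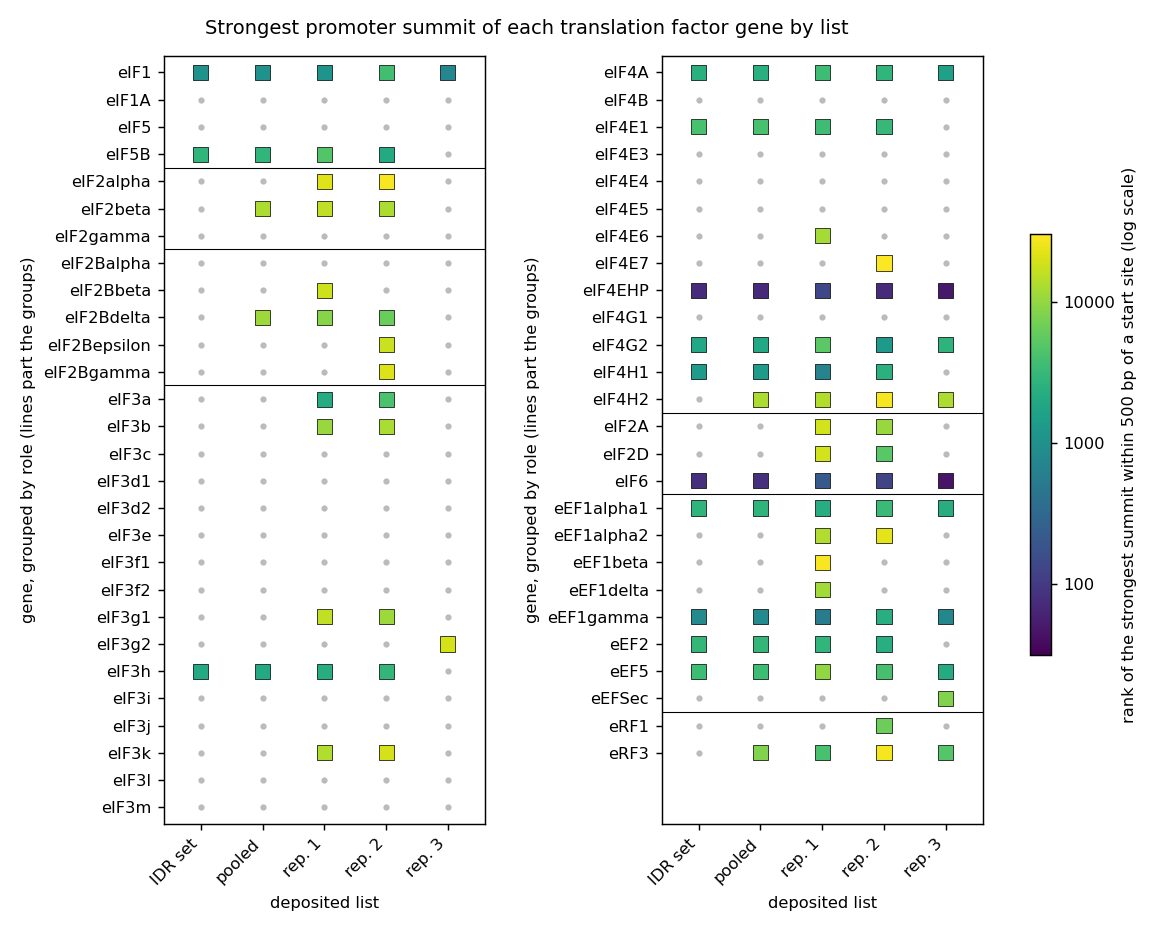
Rank of the strongest summit within 500 bp of a start site (colour, log scale, dark for strong regions) for each of the 54 genes (rows, grouped by role) in the IDR set, the pooled list and the 3 replicate lists (columns); a grey dot marks a gene with no summit in that list. Dark squares run across all 5 columns at eIF4EHP and eIF6, while most eIF3, eIF2 and eIF2B rows hold pale squares or dots.

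The peaks at eIF4EHP and eIF6 were the strongest of the group by a wide margin. eIF4EHP (FBgn0053100, 3R from 24063077 to 24108960, minus strand) encodes a cap-binding protein that holds mRNAs out of translation. Its IDR peak, on 3R from 24109000 to 24109384, had an authors' score of 1445 and was number 71 of all IDR peaks. Its rank was 136 in replicate 1, 71 in replicate 2 and 49 in replicate 3, and the summits of the replicates lay between 229 and 242 bp upstream of the start. The IDR summit itself, at 24109213, was intergenic, 253 bp upstream of eIF4EHP and 123 bp from the start of CG18428 on the other strand, so the peak stands between divergent genes and nearer to the other one.

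eIF6 (FBgn0034915, 2R from 23849246 to 23850301, minus strand) encodes the factor that keeps large ribosomal subunits from joining small ones too early. Its IDR peak, from 23850261 to 23850549, had a score of 1379 and was number 81. It ranked 215, 126 and 45 in replicates 1, 2 and 3, so all replicates placed it within the best 215 regions. The summit, 115 bp upstream of the eIF6 start, fell in an exon of the antisense gene asRNA:CR45928 and an intron of ytr, and the antisense start was the nearer at 86 bp. Both of the strongest peaks thus had the start of another gene closer than that of the translation factor.

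Genes of start codon recognition and subunit joining were bound in 2 of 4 cases. eIF1 (FBgn0035423, 3L from 3223341 to 3224650), whose product guards the choice of the start codon, had a peak of score 452 (number 1052) with its summit at 3223006, 335 bp upstream. That summit lay 46 bp from the start of RpL28, which encodes a large-subunit ribosomal protein on the opposite strand. It ranked 1085, 3801 and 728 in replicates 1, 2 and 3. eIF5B (FBgn0026259, 3L from 3428658 to 3460977, minus strand), a GTPase that joins the ribosomal subunits, had a peak of score 253 in an intron, 35 bp upstream of an internal start, at ranks of 4623 and 2010 in replicates 1 and 2 and with no summit in replicate 3. eIF1A had no promoter summit in any list, but an IDR summit of score 236 in its intron 522 bp downstream of a start, just outside the window. eIF5, the GTPase activator of eIF2, had no summit in the window or the gene in any list.

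None of the 8 genes of eIF2, which carries the initiator tRNA, or of its exchange factor eIF2B had an IDR summit, although 6 of them had a promoter summit in at least 1 replicate list. eIF2beta and eIF2Bdelta reached the pooled list. eIF2alpha was listed in replicates 1 and 2 only, eIF2Bbeta in replicate 1 only and eIF2Bepsilon and eIF2Bgamma in replicate 2 only. eIF2Balpha and eIF2gamma had no summit in the gene or window in any list. The strongest IDR peak on the arms, with a score of 3655, lay 678 bp upstream of eIF2Bbeta, outside the window and 41 bp from the start of Ugalt, a UDP-galactose transporter gene.

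Of the 16 genes of eIF3, the scaffold that docks initiation factors on the small subunit, only eIF3h had an IDR summit. Its peak (FBgn0022023, 2L from 5051193 to 5053094, minus strand) had a score of 311 (number 1991) and lay in a coding exon 98 bp downstream of an internal start, 161 bp from the start of senju. It ranked 2279 in replicate 1 and 2966 in replicate 2, and replicate 3 had no summit there. eIF3a differed from the rest: it was among the strongest regions of replicates 1 and 2, at ranks of 2141 and 4200 and 33 and 107 bp downstream of its start, but replicate 3, the pooled list and the IDR set had no region within 5 kb. eIF3b, eIF3g1 and eIF3k were listed in replicates 1 and 2 only, eIF3g2 in replicate 3 only. The other 10, eIF3c, eIF3d1, eIF3d2, eIF3e, eIF3f1, eIF3f2, eIF3i, eIF3j, eIF3l and eIF3m, had no promoter summit in any list.

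The eIF4 genes, for cap binding, scaffold and helicase, were bound in 5 of 13 cases. eIF4A (FBgn0001942, 2L from 5981764 to 5985909), the DEAD-box helicase, had a pair of IDR peaks, at summits 5982252 and 5982452, with scores of 277 and 209. They lay 111 bp upstream and 89 bp downstream of an internal start, and the strongest region that overlapped them ranked 3444, 2822 and 1558 in replicates 1, 2 and 3. Replicates 1 and 2 each listed 3 promoter regions at eIF4A and replicate 3 listed 1. eIF4E1 (FBgn0015218, 3L from 9399618 to 9402460, minus strand), the main cap-binding protein, had the lowest score among the promoter peaks, 196, in its 5′ untranslated region, at ranks of 3597 and 3135 in replicates 1 and 2 and absent from replicate 3. eIF4H1 (FBgn0262734, X from 16448665 to 16454972), a homologue of a human partner of eIF4A, had a peak of score 392 in an intron 188 bp upstream of an internal start. It ranked 705 in replicate 1 and 2546 in replicate 2 and had no summit in replicate 3. eIF4G2 (FBgn0260634, 3R from 23808285 to 23819237, minus strand), a scaffold protein needed in the male germline, shares its start with CG33111. Its peak had a score of 320 at ranks of 5172, 1242 and 2651 in replicates 1, 2 and 3.

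The remaining eIF4 genes were sparse in summits. eIF4H2 was listed in the pooled and all 3 replicate lists but not in the IDR set. eIF4E6 was found in replicate 1 only and eIF4E7 in replicate 2 only, while eIF4B, eIF4E3, eIF4E4, eIF4E5 and eIF4G1 had no summit in any list. Of the last 5, eIF4B and eIF4G1 sit in surroundings with few regions. Within 100 kb of eIF4B the IDR and pooled lists had 0 regions and the replicates 2, 0 and 5. Chromosome 4, which carries eIF4G1, held 0 IDR peaks, 2 pooled regions and 47, 3 and 8 regions of replicates 1, 2 and 3. Within 100 kb of eIF4G1 the IDR and pooled lists had 0 regions and the replicates 6, 2 and 0.

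Elongation factors had an IDR summit in 4 of 8 genes, beside 13.0% of all protein-coding genes. Each of the 8 was listed in at least 1 replicate, a count without a computed share of all protein-coding genes. eEF1gamma (FBgn0029176, 3R from 29220172 to 29222109), a structural subunit of the complex that recharges eEF1alpha with GTP, had the third strongest peak of the group, with a score of 512 (number 818). Its summit at 29220134 was 38 bp upstream of the start, and the replicates placed it 3, 40 and 36 bp upstream at ranks of 550, 2305 and 774. eEF1alpha1 (FBgn0284245, 2R from 11891135 to 11895762), which delivers aminoacyl-tRNA to the ribosome, had a score of 256 at ranks of 2261, 3298 and 2256. Its summit lay in an intron, 2 bp from an internal start, and the gene was not counted with the outermost start only. eEF1gamma and eEF1alpha1 were the 2 elongation factor genes found among the strongest regions of all 3 replicates.

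eEF2 (FBgn0000559, 2L from 21677913 to 21682164, minus strand), which moves the ribosome by a codon, had a score of 244 in an intron 103 bp downstream of a start, at ranks of 2813 and 2310 in replicates 1 and 2 and absent from replicate 3. eEF5 (FBgn0285952, 2R from 24057798 to 24059483), which relieves stalls at prolines, had a score of 218 and a summit 16 bp upstream of a start, at ranks of 9519, 4017 and 2084. eEF1alpha2 was listed in replicates 1 and 2, eEF1beta and eEF1delta in replicate 1 and eEFSec, the selenocysteine factor, in replicate 3. Neither release factor gene had an IDR summit: eRF1, which reads stop codons, had a promoter summit in replicate 2 only, and its partner GTPase eRF3 ranked 4070, 27236 and 4837 in replicates 1, 2 and 3. eIF2A and eIF2D, factors for alternative delivery of initiator tRNA, were listed in replicates 1 and 2 only.

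Several factors have a second gene. Of the 10 second copies (eEF1alpha2, eIF3d2, eIF3f2, eIF3g2, eIF4E3 to eIF4E7 and eIF4G2), 1 was bound in the IDR set, eIF4G2, and 5 were listed in at least 1 replicate. Of the 6 first copies, eEF1alpha1 and eIF4E1 were bound, and 3 were listed in at least 1 replicate. The pair eIF4H1, bound in the IDR set, and eIF4H2, which was not, was left out of both lists of copies. The counts of bound copies stand beside 13.0% of all protein-coding genes bound in the IDR set, and the difference between the copies was not tested. By chromosome arm, the IDR set held 3 of 6 factor genes on 2L, 3 of 13 on 2R, 3 of 12 on 3L, 3 of 15 on 3R, 1 of 7 on X and 0 of 1 on chromosome 4. The shares over all protein-coding genes of these arms were 12.7, 12.8, 14.5, 12.8 and 13.0%, and 0 of 80 genes on chromosome 4.

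All 54 genes can be accounted for by list. Beside the 13 with an IDR summit and the 4 with a pooled summit only, 18 had a promoter summit in a replicate list alone: 8 in replicates 1 and 2, 4 in replicate 1, 4 in replicate 2 and 2 in replicate 3. The other 19 had none in the window in any list, and 16 of these had none in the gene either. Among the strongest regions, 6 genes were found in all 3 replicates (eEF1alpha1, eEF1gamma, eIF1, eIF4A, eIF4EHP and eIF6), 8 in 2 and 1 (eRF3) in 1. For the 40 genes without an IDR summit in the window that have an IDR peak on their arm, the nearest lay a median of 14539 bp from a start, with 9 genes within 5000 bp. Neither this distance nor the counts by combination of lists or replicates were computed over all protein-coding genes. They describe the factor genes only.

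**Figure D3:**
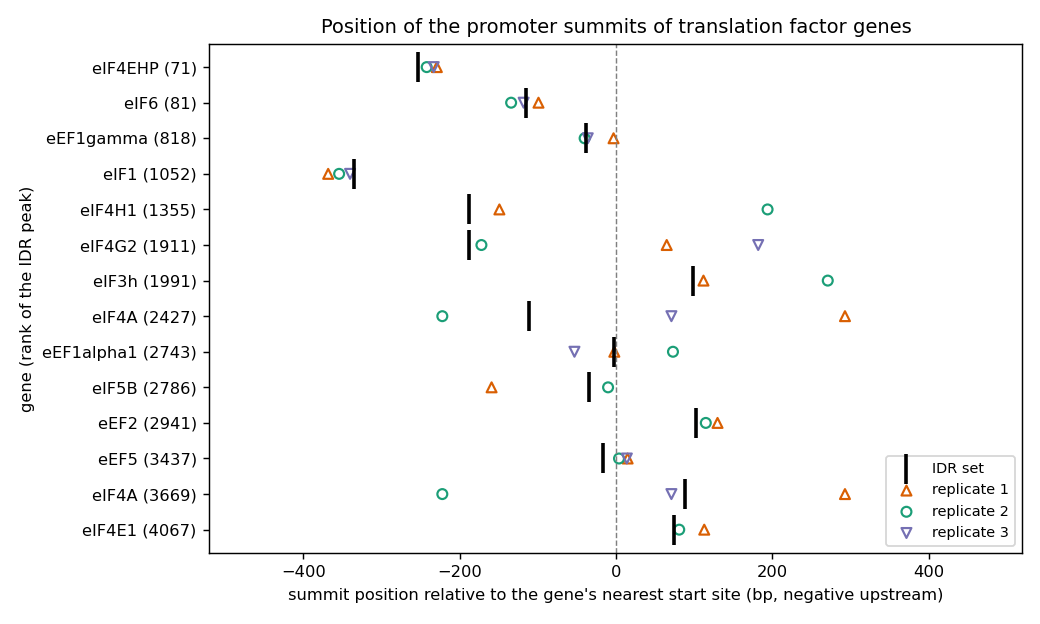
Position of each of the 14 IDR summits at the 13 bound genes (black bars) and of the strongest overlapping region of replicates 1, 2 and 3 (coloured markers) relative to the nearest start site of the gene (bp, negative upstream), ordered by IDR rank. The markers lie close to the bar at eIF4EHP, eIF6, eEF1gamma, eIF1 and eEF5, and lie farther apart at genes such as eIF4A, eIF4G2 and eIF4H1. Each marker is measured from its own nearest start, so a change of start can part markers more than the summits. At eIF4G2 the replicate 3 marker is at 182 bp and the bar at -188 bp, but the summits lay 48 bp apart. At eIF4H1 the replicate 2 marker is at 194 bp and the bar at -188 bp, with summits 105 bp apart.

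The 13 bound genes held 14 IDR promoter peaks. Of these, 10 lay upstream and 4 downstream of the nearest start of the gene, 10 within 120 bp of it. The nearest start can be an internal one, so a summit upstream of it can lie within the gene. Only 3 of the 14 summits were intergenic. The median distance to the nearest start of the gene was 100.5 bp. Measured to the nearest protein-coding start of any gene, so that the eIF1 summit counts from RpL28 and the eIF4EHP summit from CG18428, the median was 93.5 bp at translation factor genes, against 143 bp over all 1870 IDR peaks at protein-coding promoters. By this measure 57.1% of the factor peaks and 36.8% of all such peaks lay within 100 bp. The median rank was 2209 at factor genes and 2283.5 over all such peaks, and the median score was 294 and 287. Both medians lay close to those of promoter peaks in general. The whole list of replicate 3 held a smaller share of the factor peaks. All 14 were found in the whole lists of replicates 1 and 2 but 9 (64.3%) in replicate 3, where 81.2% of all promoter IDR peaks were found. The genes without a summit there were eEF2, eIF3h, eIF4E1, eIF4H1 and eIF5B. The nearest summit among the overlapping regions lay a median of 34.0, 19.5 and 20.0 bp from the IDR summit in replicates 1, 2 and 3, and at most 165, 111 and 182 bp away.

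Beyond the promoter window, 4 of the 54 genes (7.41%) had an IDR summit in the gene, against 7.70% of all protein-coding genes. In the pooled list the counts were 7 genes (13.0%) and 22.6%, so the factor genes did not exceed the background here. The 4 were eEF1alpha1, with an intronic summit 93 bp from the start of the small nucleolar RNA gene snoRNA:Me28S-A1322, eIF1A, eIF5B and eIF4EHP. eIF4EHP held a pair of intronic peaks, 2564 and 3329 bp downstream of its start with scores of 252 and 328. The second of them stands 132 bp from the start of Syx1A, a syntaxin gene within the eIF4EHP intron, and ranked 2041, 1526 and 1983 in replicates 1, 2 and 3. eIF5B had an intronic peak 22989 bp downstream, with a score of 189, that ranked 1736 in replicate 3, 13785 in replicate 2 and was absent from replicate 1.

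**Figure D4:**
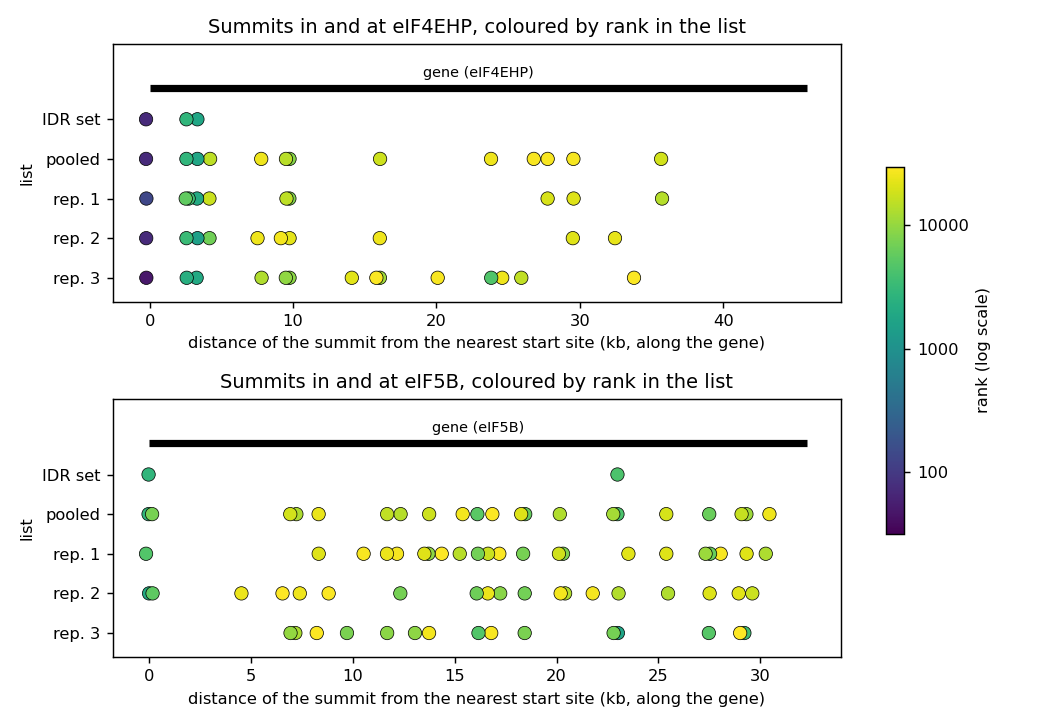
Summits (points, coloured by rank on a log scale) in and at eIF4EHP (top) and eIF5B (bottom) in each list (rows), by distance from the nearest start site along the gene (kb); the black bar is the gene. At eIF4EHP dark points cluster near the start, whereas eIF5B carries pale summits along most of its length in the pooled list and all 3 replicates.

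These are the 2 longest of the bound genes, and their summits were distributed differently. eIF5B, 32320 bp long, carried 21 pooled summits within the gene, those near its starts included, or 6.5 per 10 kb, and 6.81, 5.88 and 4.64 per 10 kb in replicates 1, 2 and 3. The medians over the 1367 protein-coding genes of at least 15000 bp, counted in the same way, were 2.6 per 10 kb in the pooled list and 2.37, 2.44 and 2.55 in the replicates, so each replicate placed eIF5B above the median. eIF4EHP, 45884 bp long, had 2.62 pooled summits per 10 kb and 1.96, 1.96 and 2.83 in replicates 1, 2 and 3, near those medians. Both held 2 IDR summits, above the IDR median of 0.0817 per 10 kb. They were picked from the bound genes, so nothing is concluded from that. The other factor genes of at least 15000 bp, eIF4B and eIF4G1, had 0.0 per 10 kb in every list.

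**Figure D5:**
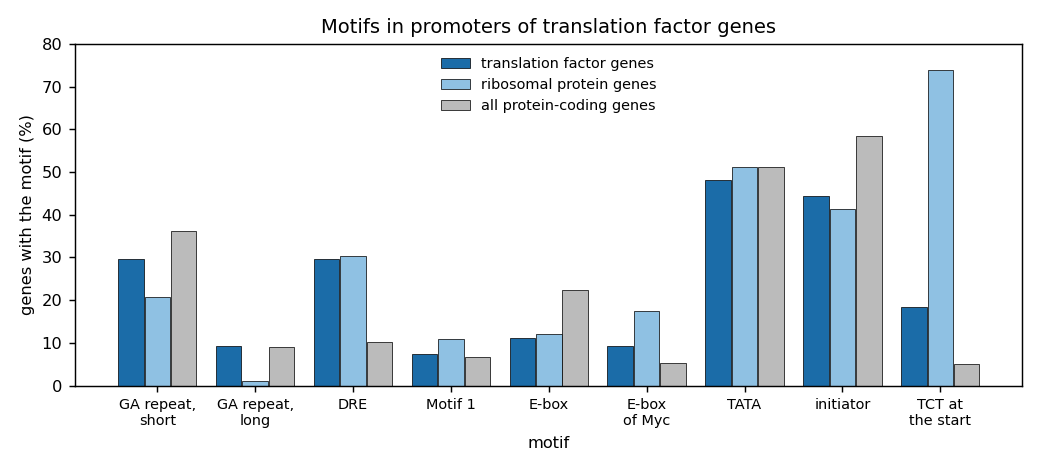
Share of genes with a motif (%, vertical axis) in the window from 250 before to 50 after a start site, or within 10 bases of the start for TCT (last group), for the 54 translation factor genes, the 92 ribosomal protein genes and all protein-coding genes. The element TATCGATA (DRE) stands at 29.6%, 30.4% and 10.2%, and TCT at 18.5%, 73.9% and 5.03%.

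Promoters were searched for the same motifs, and the shares were not tested. TATCGATA, the site of the factor DREF, was present from 250 bases before to 50 after a start in 16 of 54 factor genes (29.6%), in 30.4% of the 92 cytosolic ribosomal protein genes and in 10.2% of all protein-coding genes. It was present in 3 of the 13 bound and 13 of the 41 unbound factor genes. GAGAG was present in 29.6% of factor genes, 20.7% of ribosomal protein genes and 36.3% of all protein-coding genes. Some motifs had near-equal shares. TATAAA was present in 48.1% of factor genes and 51.3% of all protein-coding genes. The share with GAGAGAG was 9.26% and 9.08%, and that with GGTCACACT was 7.41% and 6.77%. Others differed more. TCAGT was present in 44.4% of factor genes and 58.5% of all protein-coding genes. The E-box CAGCTG was present in 11.1% and 22.3%, and the E-box CACGTG in 9.26% and 5.33%. Within the factor genes, TATAAA was present in 10 of the 13 bound (76.9%) and 16 of the 41 unbound ones (39.0%). TCAGT was present in 9 of the bound (69.2%) and 15 of the unbound ones (36.6%). Bound genes have more start sites and so more promoter sequence to search, and the part of that in these shares was not tested.

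Around the 14 factor summits (100 bases either side), TATCGATA was found at 2, eEF1gamma and eIF1, or 14.3%, against 1.6% of all 1870 IDR promoter peaks. GGTCACACT was found at 1, eIF5B (7.14%, against 1.39%), and GAGAG at 6 (42.9%, against 40.5%). TATAAA was found at 3 (21.4%, against 24.9%) and TCAGT at 2 (14.3%, against 35.3%). CAGCTG and CACGTG were found at 0, against 11.1% and 2.51% of all IDR promoter peaks. The windows ranged from 24.4% G and C at eIF4EHP to 59.2% at eIF4H1. These are letter matches in few windows and describe the sequences only.

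The TCT element was read as TCTTT or CCTTT on the sense strand within 10 bases of a start, a search added after the other motifs had been seen. It was present in 10 of 54 factor genes (18.5%), in 73.9% of ribosomal protein genes and in 5.03% of all protein-coding genes. Of the 10, 3 were bound (eEF2, eEF5 and eIF4A) and 7 were not. The match of eIF4A is at its start at 5981764, whereas its IDR summits were nearest to the internal start at 5982363, which has no match. Starts of 2 bound genes and of 3 unbound ones are shown so that the element can be compared between them: chr2L:21682106-21682126 on the minus strand for eEF2, chr2L:5981754-5981774 on the plus strand for eIF4A, chr3R:4714172-4714192 and chr2L:4967765-4967785 on the minus strand for eIF3f1 and eIF3i, and chr3R:23680029-23680049 on the plus strand for eIF3d1. Each reads 5′ to 3′ on the strand of the gene with the start site in the middle and the element in capitals. In every printed sequence the middle base lies outside the capitals. These are letter matches near an annotated start, and whether transcription starts within them was not tested.
eEF2: tgcagcgcctcgcTCTTTcct
eIF4A: gcaagatggagccTCTTTtgc
eIF3f1: actatcgataggcCCTTTtct
eIF3i: cacggtcacactgcTCTTTtg
eIF3d1: tTCTTTggcggtggtatattt
The bound pair and the unbound eIF3f1 hold the element at the same place in the window.

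Ribosomal protein genes, of the same machinery, were counted in the same way. Of the 92 cytosolic ribosomal protein genes, 45 were bound in the IDR set (48.9%), compared with 24.1% of the translation factor genes. The pooled list held 31.5% of the factor genes and 63.0% of the ribosomal protein genes, which makes the factors lower in both. Both groups had fewer bound genes in the strongest regions of replicate 3, where 8 of 54 factor genes and 29 of 92 ribosomal protein genes were found, than in replicate 1, with 13 and 60. The share of all protein-coding genes was also lower in replicate 3, 11.4% beside 14.5% in replicate 1.

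A list of 26 further translation genes without these prefixes, 25 of which were found in the annotation, held 4 with an IDR summit (16.0%, interval 4.54 to 36.1%) and 9 with a pooled one (36.0%), near the 13.0% and 32.0% of all protein-coding genes. The 4 were larp, which encodes an RNA-binding protein and carried the fourth strongest IDR peak (score 3003), pAbp, the poly(A)-binding protein gene (score 611), Thor, the gene of the inhibitor that binds eIF4E (score 333), and crc, the fly gene of the stress transcription factor ATF4 (score 197). The genes of the eIF2 kinases Gcn2 and PEK, the phosphatase regulator PPP1R15 and the mitochondrial elongation factors mEFTu1, mEFTs and mEFG1 had no IDR or pooled summit in the window.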

How the data were processed

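The deposited files were peak lists in narrowPeak format on the builds dm6 and dm3, of which the 5 dm6 lists (3 replicates, their pool and the IDR set) were used. The score column, as deposited by the authors, has its own scale in every list and served for ranking and filtering inside a list. Chromatin had been sonicated to 200 to 800 bp, per the labels. Aligner, peak caller and IDR cut-off are not given in the sources used; control libraries were not analysed here. Read depth is unknown. The p-values compare the mean difference over 3 biological replicates with its values under every change of sign, and the SD gives the spread between replicates.

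Summits on the chromosome arms, 1-based, were set against Ensembl release 115, with start sites of all annotated transcripts. Of 4822 peaks in the IDR set 4805 lay on the arms, with a lowest score of 174. A replicate region matched an IDR peak when at least 1 bp overlapped. Shares have exact 95% Clopper-Pearson intervals, which cover counting error only. Shares of factor genes and other genes were compared over replicates by an exact sign-flip permutation test. Sequences and exact motif matches came from the RefSeq copy of the dm6 assembly. The counting was tested on simulated data. Python 3.11.15, numpy 2.4.6, scipy 1.17.1, pandas 2.3.3 and matplotlib 3.10.9 were used.

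The genes described and the lists of related genes and motifs were chosen with earlier results of these data known. Every factor gene with an IDR or pooled summit is named with its values, and the others by role. Alternatives were other windows, overlap rules, score limits and numbers of strongest regions, the outermost start site alone, leaving out each replicate and, added after the data had been seen, counting the nearest start only.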

Additional observations from a re-analysis of the deposited data

How the results depend on the processing

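The factor genes with an IDR summit numbered 13, and 11 with a window of 250 bp, 18 with 1000 bp, 11 when the interval had to overlap the start, 12 with the outermost start only and 10 with the nearest start only. Each count came with a rate above that of all protein-coding genes (10.2, 16.1, 8.33, 10.6 and 11.1%). Keeping only the IDR peaks scored over the median gave a count of 7, against 7.51% of all protein-coding genes, and eEF1alpha1, eEF2, eEF5, eIF4A, eIF4E1 and eIF5B left. Taking regions among the strongest of both other replicates, the count ranged from 6 (without replicate 2) to 12 (without replicate 3), and was 8 without replicate 1, beside 7.46, 11.3 and 7.53% of all protein-coding genes. The pooled count of 17 was 14 with a window of 250 bp, 22 with 1000 bp and 14 when the interval had to overlap the start. The shares of all protein-coding genes were 25.8, 38.7 and 23.5% under these settings.

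The mean of 11.7 factor genes among the strongest regions was 4.33 with the 2000 strongest, 14.3 with the 10000 strongest and 23.3 with whole lists, and ranged from 10.5 to 13.5 with a replicate left out. The mean difference of 7.76 points remained above 0 in every alternative run, with its lowest value of 1.29 at the 2000 strongest regions and a range of 6.54 to 9.92 with a replicate left out. Genes with an IDR summit in the gene beyond the window numbered 4, and 2 with a window of 1000 bp and 1 with scores above the median. The shares of all protein-coding genes were 7.7, 6.34 and 4.94%. The 9 IDR promoter peaks matched in all replicates were 7 when summits had to lie within 100 bp, 7 among the strongest regions, and between 9 and 14 with a replicate left out, 14 being the count without replicate 3. The cause of these changes was not tested, except that fewer regions were counted under the stricter limits. No paired analysis was possible because there is 1 group. Unknown depth limits every statement that a summit was missing.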
